A study of Mus musculus with 12 samples.

Results

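The comparison described here sets liver RNA of mice whose macrophages lack thrombospondin 1 (TSP1, gene symbol Thbs1) against liver RNA of TSP1 floxed mice, both fed the low-fat (LF) diet. It uses 6 of the 12 libraries of the series: 3 labelled LF knockout and 3 labelled LF floxed, chosen by their labels and not by any measured value. All mice were of strain 129/B6 and 10 months old, and had been on their diet for 8 months. The LF knockout mice carry the macrophage-specific TSP1 knockout. The LF floxed mice carry the floxed TSP1 allele and are given the genotype WT in the labels. The other 6 libraries are 3 HF knockout and 3 HF floxed livers of the same strain and age on the high-fat (HF) diet for the same time, used below for 1 comparison only. The labels name neither the promoter that drives the recombination, nor the sex of the mice, nor the time of day of collection. Each library was made from total RNA of a whole, flash-frozen liver, so hepatocytes supply most of it and macrophages little.

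TSP1 is a large secreted glycoprotein of the extracellular matrix. It activates latent TGF-beta, and it binds the receptors CD36, also a fatty acid transporter, and CD47, a widely expressed surface protein that also carries an inhibitory signal to macrophages. Macrophages of the liver, the resident Kupffer cells and those that come from blood monocytes, make it along with platelets, endothelial cells and stellate cells. In fatty liver disease, hepatocytes store triglyceride in droplets coated by perilipin and CIDE proteins and oxidise fatty acids under control of PPAR-alpha, a nuclear receptor.

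Of 11872 genes tested in these livers, 11 passed: 5 were higher in LF knockout, among them the lipid-droplet gene Cidec and the fatty acid transporter Cd36, and 6 were lower, among them complement C8b and a male-biased Cyp4a12 gene. The 3 LF knockout libraries did not behave as 3 equal samples, and this comes first. The 6 LF libraries held 16131506 to 16536016 estimated counts each, of which named genes took 13336969 to 14487730. LF knockout replicates 2 and 3 were much more like each other than any other LF pair. Their index of dispersion, the median squared difference between 2 libraries over what counting noise gives, was 2.33, where 1 is counting noise alone. This is above the limit of 1.5 set for averaging, so both were kept, and the counts with the pair averaged to 1 library are given beside the main ones. Within groups, the index of LF knockout replicate 1 was 12.8 with replicate 2 and 12.7 with replicate 3, and the LF floxed pairs lay at 8.06, 8.64 and 12.1. Across groups, LF knockout replicate 1 stood at 5.17 from LF floxed replicate 2 and at 7.59 from LF floxed replicate 1, closer than to either library of its own group. LF knockout replicates 2 and 3 stood at 6.83 and 6.95 from HF floxed replicate 3, closer than to any LF floxed library. The map of pairwise differences shows this pattern. The labels do not say whether replicates 2 and 3 came from separate animals, so p-values here measure the spread between these libraries, which may be technical.

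**Figure D1:**
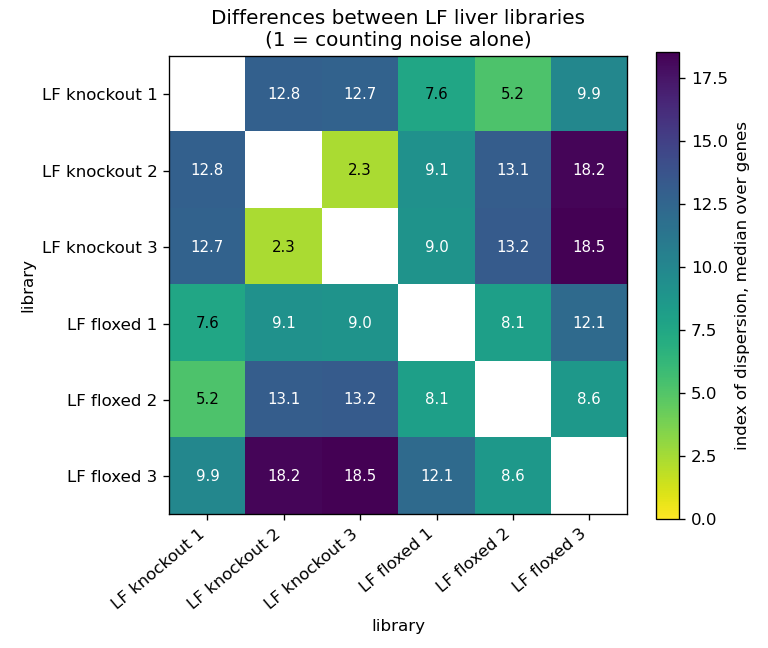
Each square gives the index of dispersion between a pair of LF libraries (median over genes, 1 is counting noise alone), with LF knockout libraries left and on top. LF knockout 2 and 3 differ by 2.33, while LF knockout 1 differs from them by 12.8 and 12.7 and from LF floxed 2 by 5.17.

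The targeted gene was not lower in the libraries labelled LF knockout. Thbs1 (gene 21825, chromosome 2) had 0.08, 0.55 and 0.55 FPKM in LF knockout livers, against 0.11, 0.06 and 0.07 FPKM in LF floxed livers (FPKM is fragments scaled to gene length and to the fragments of the library). LF knockout replicate 1 lay within the LF floxed values and the other 2 lay above them, so the groups overlapped. These values rest on 107 estimated counts in the 3 LF knockout libraries and 20 in the 3 LF floxed ones, too few to pass the filter on low counts. Fitted without the filter, the log2 difference was 2.19 ± 0.69 (SE, n = 3 each), with an adjusted p of 0.48 in edgeR. An exact two-sided permutation test on log2(FPKM + 1) gave p = 0.2, where 3 against 3 libraries cannot go below 0.1. Without LF knockout replicate 1 the log2 difference was 2.67 with an adjusted p of 0.0454. Other liver cells keep the gene in this model, so whole-liver Thbs1 does not check the labels, and every direction below rests on them. In such bulk RNA, fewer cells of a type and less RNA per cell cannot be told apart.

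The promoters of 3 of the genes named by rank are shown: Cd36 and Cyp2b9, which had higher values in LF knockout, and C8b, which had lower ones. They were chosen after the values were seen because each holds the half-site described next. Each is the 250 bases before the first listed RefSeq start in GRCm38.p6, a newer build than the one named for the files: Cd36 at chr5:17835897-17836146 (minus strand), Cyp2b9 at chr7:26173159-26173408 (plus strand) and C8b at chr4:104766067-104766316 (plus strand). Capitals mark the letters AGGTCA or their reverse complement, the half-site bound by PPAR-alpha, HNF4-alpha, CAR and other nuclear receptors of hepatocytes.
Cd36: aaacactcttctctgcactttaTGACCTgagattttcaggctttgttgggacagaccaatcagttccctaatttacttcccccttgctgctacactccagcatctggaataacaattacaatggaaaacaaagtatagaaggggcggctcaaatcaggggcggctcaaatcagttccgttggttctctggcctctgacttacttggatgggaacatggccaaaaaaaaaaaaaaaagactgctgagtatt
Cyp2b9: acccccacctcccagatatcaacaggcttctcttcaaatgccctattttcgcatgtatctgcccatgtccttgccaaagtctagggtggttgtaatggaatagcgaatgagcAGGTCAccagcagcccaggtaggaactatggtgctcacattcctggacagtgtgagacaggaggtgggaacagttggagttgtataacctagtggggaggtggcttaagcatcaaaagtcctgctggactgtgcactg
C8b: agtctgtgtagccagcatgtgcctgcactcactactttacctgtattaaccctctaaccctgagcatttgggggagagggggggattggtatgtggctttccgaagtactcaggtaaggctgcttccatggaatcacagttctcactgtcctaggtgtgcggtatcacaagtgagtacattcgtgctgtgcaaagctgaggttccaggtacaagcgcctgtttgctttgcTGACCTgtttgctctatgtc
Of the 12 genes named by rank on each side, 11 of the higher and 8 of the lower ones matched the promoter table by gene number. The letters AGGTCA, on either strand, stood in 4 of the 11 higher promoters (Cd36, Cyp2b9, Cyp3a59 and Gdf15) and in 3 of the 8 lower ones (C8b, C6 and G6pc), while 13.8% of 27025 promoters of the same length hold them. Its direct repeat with a spacer of 1 base, the element of PPAR-alpha and its partner RXR, was in none of the 19 windows and in 0.037% of all promoters. The STAT motif TTCNNNGAA, also searched on either strand, was in 0 of 11 higher and 1 of 8 lower promoters (Sgk1), against 7.18% of all. These motifs were picked after the expression values were seen, and a match is a description of letters only.

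The genes called at a false discovery rate of 5% numbered 5 higher (0.0421% of 11872 tested) and 6 lower (0.0505%), each with an adjusted p of 0.0469 in edgeR's quasi-likelihood test. Cd36 (chromosome 5), the fatty acid transporter and TSP1 receptor, had 16.4, 36.0 and 36.2 FPKM in LF knockout livers, against 1.85, 3.91 and 3.06 FPKM in LF floxed livers. All LF knockout libraries were above all LF floxed ones, by 8.90-fold in the fit (log2 difference 3.15 ± 0.36, SE). Cidec, a droplet-coating protein that fuses lipid droplets and makes them larger, had 8.62, 29.8 and 28.5 FPKM in LF knockout, against 0.53, 1.39 and 0.89 FPKM in LF floxed, 19.3-fold higher (log2 difference 4.27 ± 0.53). In both genes LF knockout replicate 1 was the lowest of its group and still above every LF floxed library.

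Lgals1 encodes galectin-1, a sugar-binding protein of stromal and immune cells. It had 63.5, 85.9 and 87.2 FPKM in LF knockout, against 14.6, 18.2 and 24.3 FPKM in LF floxed (log2 difference 1.88 ± 0.20). Hao2, a peroxisomal hydroxyacid oxidase that female mouse livers express more than male ones, had 1.26, 2.69 and 2.16 FPKM in LF knockout, against 0.09, 0.18 and 0.06 FPKM in LF floxed (3.95 ± 0.50). The beta-globin gene Hbb-bs had 374, 570 and 612 FPKM in LF knockout, against 150, 160 and 170 FPKM in LF floxed (1.51 ± 0.19). In these 3 genes, too, the groups did not overlap, as in 16.6% of all tested genes with LF knockout above and 2.2% with LF knockout below.

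Among the lower genes, C8b, a subunit of the complement membrane attack complex made by hepatocytes, had 42.9, 46.1 and 44.2 FPKM in LF knockout livers, against 99.8, 106 and 93.8 FPKM in LF floxed livers. Both groups were tight and stood 2.53-fold apart (log2 difference -1.34 ± 0.13, SE). Cyp4a12b, a male-biased fatty acid hydroxylase, had 8.76, 11.7 and 10.0 FPKM in LF knockout, against 22.5, 32.6 and 26.6 FPKM in LF floxed (-1.59 ± 0.17). Sgk1, a kinase induced by glucocorticoids, had 2.94, 2.86 and 3.17 FPKM in LF knockout, against 8.36, 6.47 and 6.92 FPKM in LF floxed (-1.44 ± 0.17). Cyp4a12b has a near-identical neighbour, Cyp4a12a, with 72.2, 89.4 and 87.1 FPKM in LF knockout and 65.4, 222 and 67.3 FPKM in LF floxed, so the split of reads between the 2 is uncertain.

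Cadm4, a cell adhesion molecule, had 1.42, 0.94 and 1.23 FPKM in LF knockout, against 4.30, 4.01 and 4.24 FPKM in LF floxed (log2 difference -1.97 ± 0.24). Itih5, a matrix protein that binds hyaluronan, had 0.66, 0.61 and 0.75 FPKM in LF knockout, against 1.67, 1.59 and 1.77 FPKM in LF floxed (-1.48 ± 0.16). Morf4l1b had 4.98, 4.81 and 3.90 FPKM in LF knockout, against 15.7, 10.9 and 12.3 FPKM in LF floxed (-1.67 ± 0.21). It resembles its parent gene Morf4l1, which makes its count uncertain. In all 6 lower genes LF knockout replicate 1 lay with the other LF knockout libraries, and no value overlapped the LF floxed ones.

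**Figure D2:**
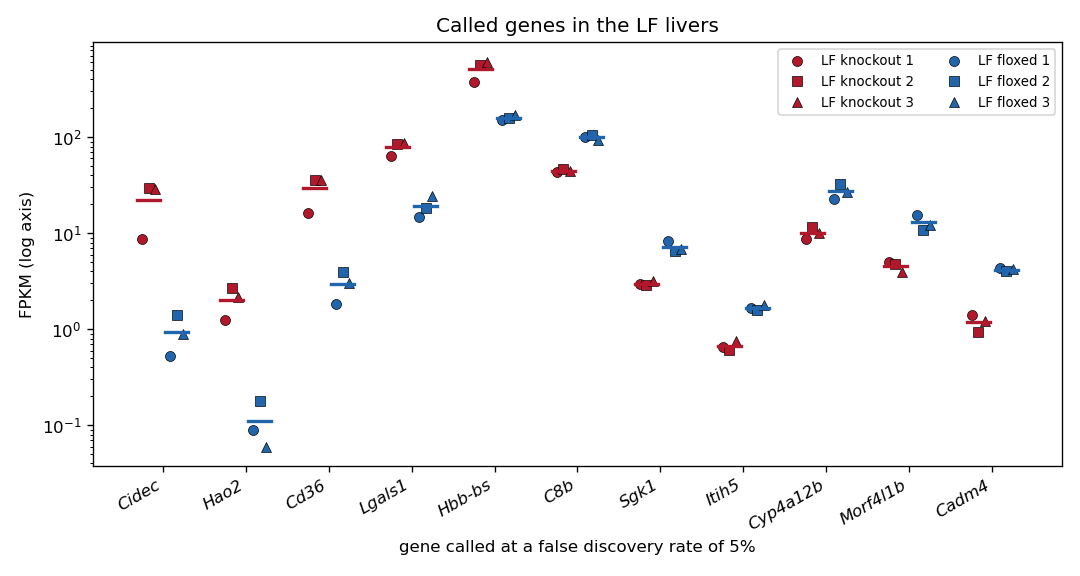
Points give the FPKM (log axis) of the 11 called genes in each LF library, LF knockout in red to the left and LF floxed in blue to the right of each pair, and bars give group means. LF knockout 1 is the lowest red point in the 5 higher genes, while in C8b all 3 red points lie between 42.9 and 46.1 FPKM.

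The number of calls depended on single libraries and on the treatment of LF knockout replicates 2 and 3. With LF knockout replicates 2 and 3 averaged, edgeR called 0 genes in either direction, with 245 higher and 180 lower at an unadjusted p under 0.05. Without LF knockout replicate 1 it called 105 higher and 42 lower, including all 11 genes above. Without either of the other LF knockout libraries, or without any single LF floxed library, it called 0 (242 to 855 higher and 195 to 785 lower at an unadjusted p under 0.05). DESeq2 on all 6 libraries called 112 higher (0.944%) and 50 lower (0.421%). The 11 genes kept their direction in all 18 alternative settings. Over all tested genes, 555 were higher (4.67%) and 540 lower (4.55%) at an unadjusted p under 0.05. On log2(FPKM + 1) limma placed 1214 higher and 158 lower, with the median of all genes at 0.12 in place of -0.02. Among the 555 higher genes LF knockout replicate 1 was the LF knockout library nearest to the LF floxed mean in 79.1%, and among the 540 lower genes in 73.5%.

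**Figure D3:**
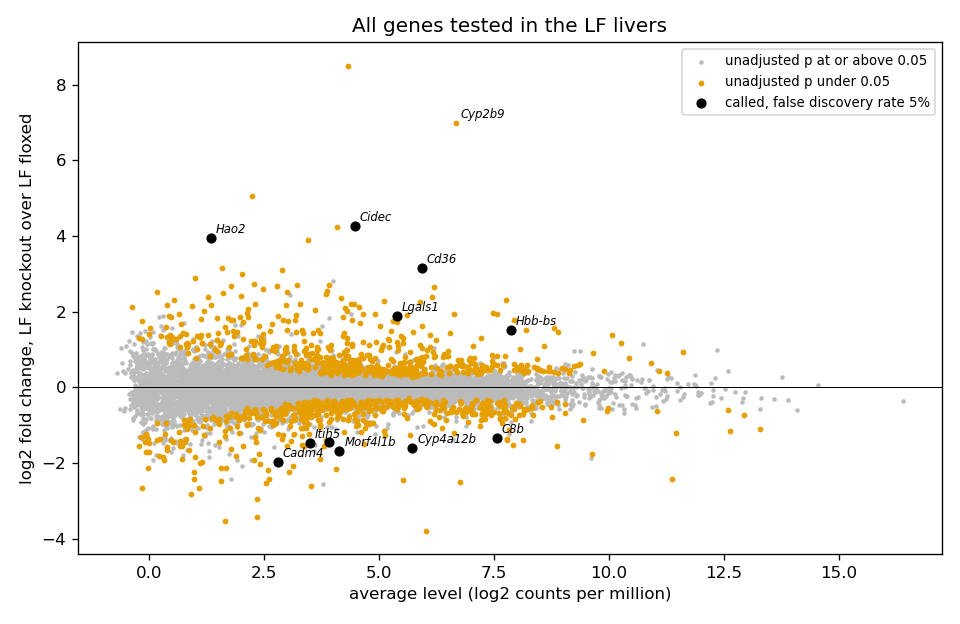
Each point is 1 of 11872 genes, by average level (log2 CPM, counts scaled to library size) and log2 fold change of LF knockout over LF floxed. Black points are the 11 called genes and orange points the other genes at an unadjusted p under 0.05; called genes other than Sgk1, and Cyp2b9, are named.

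Below the called genes, the next 7 by rank on the higher side were Cyp3a59, Gdf15, Cyp2a22, Cyp2b9, Sh3bgrl2, Gprc5b and Hbb-bt. Cyp2b9, a P450 that is female-biased in mouse liver and responds to CAR, had 8.47, 96.9 and 94.5 FPKM in LF knockout, against 0.71, 0.43 and 0.35 FPKM in LF floxed (log2 difference 6.99 ± 0.97, SE, adjusted p 0.07 in edgeR). On the log scale LF knockout replicate 1 lay about midway between the LF floxed libraries and the other LF knockout libraries. Gdf15, a secreted stress hormone that lowers food intake, had 29.6, 21.2 and 21.7 FPKM in LF knockout, against 5.50, 2.93 and 5.48 FPKM in LF floxed (2.20 ± 0.29, adjusted p 0.0553). Here LF knockout replicate 1 was the highest. Cyp3a59, Cyp2a22, Sh3bgrl2, Gprc5b and Hbb-bt also had no overlap between groups, with log2 differences of 1.08 to 3.15 and adjusted p of 0.0509 to 0.079. Gprc5b passed the filter on low counts mostly through LF knockout (49, 91 and 86 estimated counts, against 11, 4 and 7 in LF floxed).

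On the lower side the next 6 by rank were Sik1, G6pc, Hsbp1l1, C6, Serpina3k and Arl4d. G6pc, the last enzyme of glucose output, had 58.8, 66.1 and 65.3 FPKM in LF knockout, against 121, 201 and 121 FPKM in LF floxed (log2 difference -1.39 ± 0.22, SE, adjusted p 0.105). Sik1, a kinase that restrains gluconeogenic transcription, had 1.81, 1.30 and 1.59 FPKM in LF knockout, against 3.10, 4.42 and 3.63 FPKM in LF floxed (-1.41 ± 0.21, adjusted p 0.0814). Hsbp1l1, the complement component C6, the serpin Serpina3k and Arl4d had log2 differences of -2.48 to -0.96 and adjusted p of 0.109 to 0.134.

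The lists described next were compared by counts of members at an unadjusted p under 0.05, to be read against 4.67% of all genes higher and 4.55% lower, and by the median log2 difference, to be read against -0.02 over all genes. Beside these counts stand those with LF knockout replicates 2 and 3 averaged, or without LF knockout replicate 1, where they move by over 1.5 times. Averaging the pair leaves 245 of 12030 genes higher and 180 lower at that p, and leaving out replicate 1 gives 984 of 12173 higher and 1456 lower. The plot of gene lists by library gives the same in each library. Fatty acid uptake and droplet genes were split: 7 of 21 tested were higher and 0 lower, 2 of them called (Cd36 and Cidec), while the median was 0.14. Without LF knockout replicate 1, 8 were higher and 5 lower. Cidea, a relative of Cidec that livers make when they store fat, had 0.61, 47.2 and 52.4 FPKM in LF knockout, against 0, 0.11 and 0.11 FPKM in LF floxed (adjusted p 0.19). At so low an LF floxed level Cidea could pass the filter on low counts only through LF knockout. Such a member can only come out higher, which limits what the count of this list shows. Plin4, a droplet coat protein, had 0.83, 7.95 and 7.60 FPKM in LF knockout, against 0.31, 0.18 and 0.31 FPKM in LF floxed (log2 difference 4.24 ± 0.80, adjusted p 0.151). Both genes were high in LF knockout replicates 2 and 3 and near the LF floxed level in replicate 1. Plin2, the main droplet coat of hepatocytes, showed no such gap, with 571, 357 and 335 FPKM in LF knockout and 308, 340 and 311 FPKM in LF floxed. The adipocyte markers Plin1 and Adipoq were at 0 in 6 and in 5 of the 6 libraries. Only 1 member of the adipocyte list, Car3, passed the filter on low counts, and it went higher. It had 1306, 3170 and 3186.5 FPKM in LF knockout and 1323, 1318 and 852 FPKM in LF floxed, so the groups overlapped. Its log2 difference was 0.94 ± 0.33 (SE, unadjusted p 0.0219 and adjusted p 0.499 in edgeR).

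Fatty acid oxidation genes leaned higher in LF knockout. Of 30 tested, 10 were higher and 0 lower at an unadjusted p under 0.05, 18 had LF knockout values that were all above the LF floxed ones (16.6% of all genes did), and the median log2 difference was 0.23. Without LF knockout replicate 1, 8 were higher and 1 lower. No member passed the adjusted test. Vnn1, a PPAR-alpha target, had 35.1, 53.9 and 57.4 FPKM in LF knockout, against 2.85, 12.2 and 5.86 FPKM in LF floxed (log2 difference 2.64 ± 0.46, SE, adjusted p 0.134). Acaa1b, a peroxisomal thiolase, had 840, 1069 and 1056 FPKM in LF knockout, against 557, 481 and 489 FPKM in LF floxed (0.78 ± 0.16, adjusted p 0.19). Cyp4a14, a fatty acid hydroxylase, was highest in LF knockout replicate 1, with 235, 78.6 and 78.6 FPKM in LF knockout and 3.46, 16.7 and 52.3 FPKM in LF floxed.

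Most genes of fat and cholesterol synthesis had a negative log2 difference, but the libraries of a group did not move together. Of 21 lipogenesis genes, 19 had a negative log2 difference, while 47.7% of all genes had a positive one. At an unadjusted p under 0.05, 0 were higher and 1 lower, with a median log2 difference of -0.35. The list's median level lay at 0.38, -0.89 and -0.87 log2 units in the LF knockout libraries and at -0.04, 0.36 and -0.30 in the LF floxed libraries, both from the LF floxed mean. LF knockout replicate 1 was thus the highest of all 6 and the other 2 the lowest, and without it the median difference was -0.94 with 12 lower. With the pair averaged 0 were lower and the median was -0.09; it was -0.10 without LF floxed replicate 2. The 1 gene lower at an unadjusted p under 0.05 over all 6 libraries was Mlxipl, which encodes the carbohydrate sensor ChREBP. It had 47.2, 30.4 and 29.4 FPKM in LF knockout and 53.9, 47.4 and 46.2 FPKM in LF floxed (adjusted p 0.509). Of 24 cholesterol synthesis genes, 22 had a negative log2 difference, with a median of -0.63. At an unadjusted p under 0.05, 0 were higher and 3 lower. Here the LF floxed libraries alone spread over -0.70 to 0.66 log2 units, wider than the gap between groups. The count lower was 0 with the pair averaged and 14 without LF knockout replicate 1, and without LF floxed replicate 2 the median was -0.18.

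Genes that differ between the sexes in mouse liver leaned in opposite directions. Of 20 female-biased genes, 9 passed the filter on low counts. Hao2 passed it through the LF knockout libraries alone, with 41, 87 and 70 estimated counts there and 3, 6 and 2 in LF floxed. Others could pass in the same way. Such a member can only come out higher, which limits what the count and the median of this list show. Of these 9, 5 were higher and 0 lower at an unadjusted p under 0.05 (1 called, Hao2), with a median log2 difference of 1.02 (1.83 without LF floxed replicate 3). Without LF knockout replicate 1, 11 were tested, of which 5 were higher and 2 lower. Of 22 male-biased genes tested, 0 were higher and 12 lower (1 called, Cyp4a12b), with a median of -0.87, and 11 were lower both with the pair averaged and without LF knockout replicate 1. Hsd3b5, a male-specific steroid dehydrogenase, had 6.53, 24.7 and 26.1 FPKM in LF knockout, against 84.2, 124 and 78.6 FPKM in LF floxed (-2.51 ± 0.45, SE, adjusted p 0.14). Cyp2b13, a female-biased P450 that resembles Cyp2b9, had 0.19, 13.4 and 13.9 FPKM in LF knockout and was listed at 0 in every LF floxed library. The major urinary protein Mup3 had 5754, 6455 and 6105 FPKM in LF knockout, against 9820, 8755 and 8653 FPKM in LF floxed (-0.74 ± 0.15, adjusted p 0.188), and its family shares reads. By library, the male-biased list stood at -1.08, -0.77 and -0.85 log2 units in LF knockout and at 0.52, -0.08 and -0.33 in LF floxed, so its groups did not overlap. The female-specific genes Sult2a1 and Sult3a1 were between 0 and 0.18 FPKM in all 6 libraries. The Y-linked Ddx3y had 6.73, 8.99 and 8.87 FPKM in LF knockout and 6.31, 6.70 and 6.46 FPKM in LF floxed. The pituitary growth hormone rhythm that sets these genes was not measured, and of 13 genes of the growth hormone axis 2 were higher and 1 lower (1 and 0 with the pair averaged, 4 and 1 without LF knockout replicate 1).

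Drug-metabolising P450 genes and their regulators included 8 higher and 0 lower of 20 tested at an unadjusted p under 0.05, with a median log2 difference of 0.52, and without LF knockout replicate 1, 12 of 22 were higher and 1 lower. After Cyp2b9, the member of smallest p was Cyp2c38, with 26.5, 30.7 and 31.2 FPKM in LF knockout, against 3.16, 10.4 and 12.3 FPKM in LF floxed (1.61 ± 0.41, SE, adjusted p 0.365). Among bile acid genes, 2 of 18 were higher and 3 lower. With the pair averaged 1 of 19 was higher, and without LF knockout replicate 1, 4 of 18 were. Abcc3, an exporter of conjugates into blood, had 31.3, 62.5 and 62.1 FPKM in LF knockout, against 7.61, 14.7 and 12.96 FPKM in LF floxed (1.96 ± 0.31, adjusted p 0.109). The uptake carrier Slco1a1, also male-biased, had 36.6, 30.4 and 30.2 FPKM in LF knockout, against 60.5, 80.3 and 50.8 FPKM in LF floxed (-1.14 ± 0.21, adjusted p 0.14).

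Genes of the unfolded protein and integrated stress responses leaned higher in LF knockout in all 3 libraries. Of 20 tested, 12 had LF knockout values that were all above the LF floxed ones, against 16.6% of all tested genes. At an unadjusted p under 0.05, 11 were higher and 0 lower, and the median log2 difference was 0.64. With the pair averaged 8 were higher, and without LF knockout replicate 1, 11 were higher and 3 lower. Creld2, a chaperone of the endoplasmic reticulum, had 57.0, 39.2 and 34.9 FPKM in LF knockout, against 18.2, 16.5 and 11.3 FPKM in LF floxed (1.35 ± 0.27, SE, adjusted p 0.179). Hspa5, the main chaperone there (BiP), had 337, 407 and 402 FPKM in LF knockout, against 228, 190 and 123 FPKM in LF floxed (0.90 ± 0.24, adjusted p 0.399). The list stood at 0.79, 0.59 and 0.67 log2 units in the LF knockout libraries and at 0.21, 0.08 and -0.16 in the LF floxed ones. LF knockout replicate 1 was the highest, unlike in the interferon and heat shock lists. Of 13 heat shock genes, 4 were higher and 0 lower, with a median of 0.57, and replicate 1 lay within the LF floxed libraries. Their count was 2 with the pair averaged and 8 without replicate 1. Of 11 p53 targets, 4 were higher and 1 lower (1 and 1 with the pair averaged, 6 and 2 without LF knockout replicate 1). Eda2r, a receptor of the TNF receptor family, had 0.34, 0.73 and 1.09 FPKM in LF knockout, against 0.08, 0.11 and 0.08 FPKM in LF floxed (2.88 ± 0.46, adjusted p 0.109). It passed the filter on low counts through LF knockout alone (26, 53 and 66 estimated counts, against 6, 5 and 6 in LF floxed).

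Interferon-stimulated genes stood above LF floxed in LF knockout replicates 2 and 3, and replicate 1 did not share this. Of 24 tested, 12 were higher and 0 lower at an unadjusted p under 0.05, and the median log2 difference was 0.92. With the pair averaged 7 were higher, and without LF knockout replicate 1, 18. The list stood at -0.01, 1.24 and 1.33 log2 units in the LF knockout libraries, against 0.08, -0.20 and 0.14 in the LF floxed ones, so replicate 1 lay within LF floxed. Igtp, a GTPase that interferon induces, had 14.7, 37.7 and 33.7 FPKM in LF knockout, against 10.8, 11.8 and 11.1 FPKM in LF floxed (1.16 ± 0.29, SE, adjusted p 0.351). Of 7 MHC class II genes, 0 were at an unadjusted p under 0.05 in either direction, and 3 were higher without replicate 1.

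Acute phase proteins, which hepatocytes secrete in response to IL-6 and IL-1, included 8 higher and 1 lower of 19, with a median log2 difference of 0.37 (5 higher with the pair averaged, and 3 lower without LF knockout replicate 1). Saa1 had 43.0, 131 and 127 FPKM in LF knockout, against 23.1, 25.3 and 29.4 FPKM in LF floxed (1.76 ± 0.36, SE, adjusted p 0.19). Orm3 had 1.15, 14.8 and 16.7 FPKM in LF knockout and 0, 0.58 and 0.25 FPKM in LF floxed. It passed the filter on low counts through LF knockout alone (14, 179 and 202 estimated counts, against 0, 7 and 3 in LF floxed). The 1 lower gene, Hamp, encodes the iron hormone hepcidin and had 1587, 530 and 557 FPKM in LF knockout, against 2618, 1826 and 3719 FPKM in LF floxed (-1.75 ± 0.49, adjusted p 0.424). Id1, a target of BMP signalling that controls Hamp, had 5.50, 1.96 and 2.31 FPKM in LF knockout, against 20.3, 9.99 and 23.1 FPKM in LF floxed (-2.60 ± 0.48, adjusted p 0.146). In both genes no LF knockout value reached the lowest LF floxed one. Of 26 complement and coagulation genes, 0 were higher and 6 lower at an unadjusted p under 0.05 (1 called, C8b), with a median of -0.18. The count lower was 3 with the pair averaged.

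Ribosomal protein genes leaned lower: 24 of 24 had a negative log2 difference, with a median of -0.58, while 47.7% of all genes had a positive one. Of the 24, 14 were lower at an unadjusted p under 0.05. The count was 1 with the pair averaged and 23 without LF knockout replicate 1. The list stood at -0.17, -0.77 and -0.83 log2 units in LF knockout libraries and at -0.30, -0.03 and 0.28 in LF floxed libraries, so LF knockout replicate 1 lay within LF floxed. Rpl3 had 114, 88.3 and 89.5 FPKM in LF knockout and 104, 162 and 147 FPKM in LF floxed (-0.66 ± 0.21, SE, adjusted p 0.498). Among the 14 glucocorticoid-responsive genes, 1 was higher and 3 lower (2 and 4 without LF knockout replicate 1), Sgk1 being the 1 called.

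**Figure D4:**
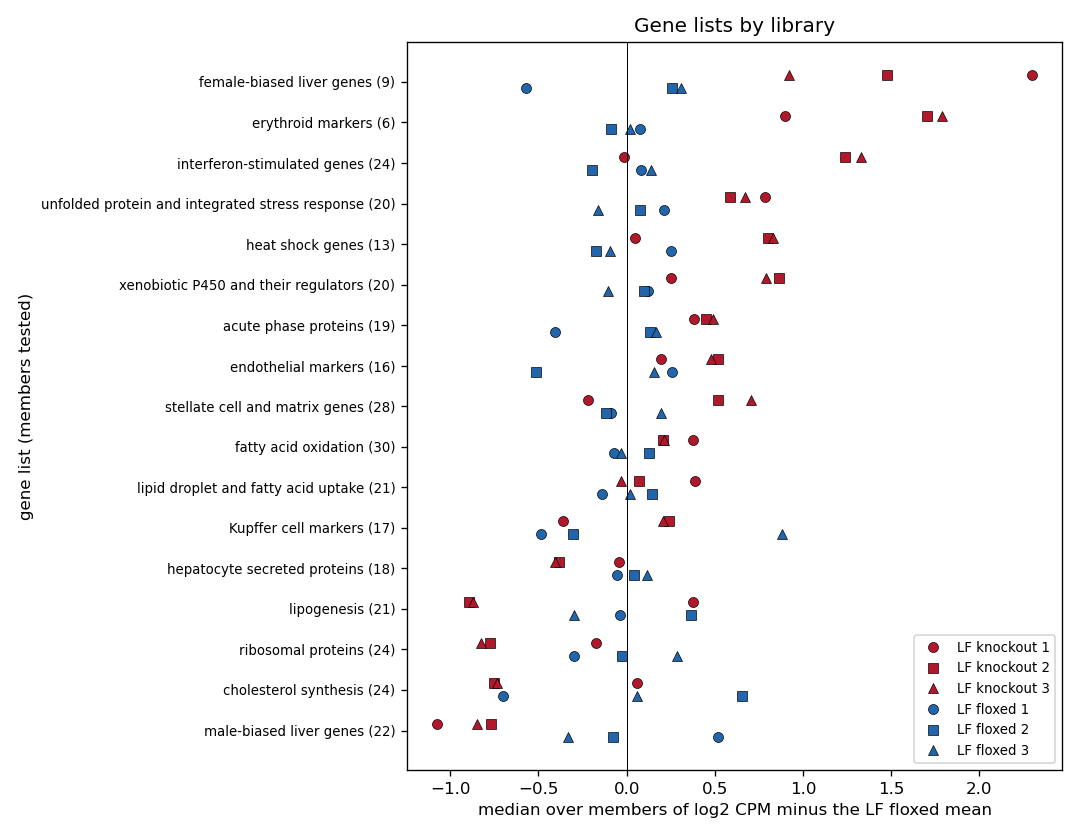
For 17 gene lists (number of tested members in brackets) each point gives 1 LF library: the median over members of its log2 CPM minus the mean of the LF floxed libraries, LF knockout in red above LF floxed in blue. The 17 were picked by hand from 47 lists with at least 3 tested members. Lists not drawn include TGF-beta (median log2 difference 0.07) and sphingomyelin and ceramide (0.01). LF knockout 1 stands with LF knockout 2 and 3 in the stress response list (0.79, 0.59 and 0.67) and within LF floxed in the interferon list (-0.01).

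Genes tied to TSP1 itself came next. Of 10 tested genes of the TSP family and its receptors, 1 was higher at an unadjusted p under 0.05 in the 6 libraries, Cd36, and 0 were lower. Without LF knockout replicate 1, 3 of 11 were higher, Thbs1 and Thbs2 among them. The receptor Cd47 had 10.5, 11.3 and 10.8 FPKM in LF knockout and 10.7, 11.3 and 13.3 FPKM in LF floxed. Of 19 TGF-beta pathway genes, 1 was higher and 1 lower at an unadjusted p under 0.05 (0 and 1 with the pair averaged, 1 and 2 without LF knockout replicate 1). Smad7, an inhibitor of the pathway that TGF-beta itself induces, had 0.90, 1.36 and 0.99 FPKM in LF knockout, against 2.80, 1.82 and 2.08 FPKM in LF floxed (-1.22 ± 0.25, SE, adjusted p 0.188). Tgfb1 had 3.63, 4.65 and 5.37 FPKM in LF knockout and 2.08, 3.77 and 6.36 FPKM in LF floxed, which overlap throughout. Of 17 sphingomyelin and ceramide genes, 3 were higher and 0 lower (3 and 2 without LF knockout replicate 1). Cers6, a ceramide synthase, had 1.41, 1.79 and 2.35 FPKM in LF knockout, against 0.75, 0.62 and 0.71 FPKM in LF floxed (1.23 ± 0.22, adjusted p 0.134).

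Kupffer cell markers did not separate the groups. Of 17 tested, 0 were at an unadjusted p under 0.05 in either direction (1 was higher without LF knockout replicate 1), and their summed level was 211, 326 and 316 FPKM in LF knockout and 163, 197 and 465 FPKM in LF floxed. Clec4f, specific to Kupffer cells, had 18.2, 22.6 and 22.5 FPKM in LF knockout and 13.5, 13.9 and 25.1 FPKM in LF floxed. LF floxed replicate 3 was the highest for both and for the neutrophil markers. These summed to 2.77, 2.96 and 3.91 FPKM in LF knockout and 3.02, 1.90 and 11.1 FPKM in LF floxed. The neutrophil sums are near the floor: 1 of 12 markers, S100a9, passed the filter on low counts, and 2 to 6 were at 0 in each library. S100a9 had 4.48 FPKM in LF floxed replicate 3, from 35 estimated counts. Of 14 monocyte and lipid-associated macrophage markers, 0 were higher and 1 lower, and without LF knockout replicate 1 the counts were 2 and 2 of 16. Fabp5, a fatty acid carrier that hepatocytes also make, was the lower gene and had 19.3, 2.64 and 3.50 FPKM in LF knockout and 4.75, 182 and 140 FPKM in LF floxed.

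Stellate cell and matrix genes included 4 higher and 0 lower of 28, with a median log2 difference of 0.31 (2 higher with the pair averaged and 13 without LF knockout replicate 1). Acta2, the actin of activated stellate and smooth muscle cells, had 0.73, 3.51 and 3.26 FPKM in LF knockout, against 0.68, 0.30 and 0.62 FPKM in LF floxed (2.06 ± 0.58, SE, adjusted p 0.424). The list summed to 158, 233 and 239 FPKM in LF knockout and 146, 157 and 211 FPKM in LF floxed, so the groups overlapped. Lgals1, also made by such cells, did not follow this list in LF knockout replicate 1: it had 63.5 FPKM there, above every LF floxed library, while the list stood at -0.22 log2 units, below all 3 LF floxed libraries. Of 16 endothelial markers, 4 were higher and 0 lower, and 2 were higher with the pair averaged. The smallest p was that of Lyve1, a hyaluronan receptor of sinusoidal and lymphatic endothelium, with 1.08, 1.44 and 1.44 FPKM in LF knockout, against 0.34, 0.71 and 0.43 FPKM in LF floxed (1.24 ± 0.36, adjusted p 0.43).

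Erythroid markers summed to 1530, 2962 and 3158 FPKM in LF knockout, against 783, 758 and 777 FPKM in LF floxed. The 4 of 6 tested members that were higher at an unadjusted p under 0.05 were globins, whose near-identical copies share reads. Hba-a1 had 695, 1422 and 1493 FPKM in LF knockout, against 336, 371 and 372 FPKM in LF floxed (1.56 ± 0.26, SE, adjusted p 0.123). Alas2, the erythroid enzyme of haem synthesis, did not follow them, with 55.8, 74.4 and 71.7 FPKM in LF knockout and 72.4, 47.6 and 50.3 FPKM in LF floxed. The part of blood left in the tissue in the globin difference was not tested.

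Clock genes varied within both groups. Dbp, a transcription factor with a strong daily rhythm, had 84.2, 4.24 and 5.03 FPKM in LF knockout and 1.98, 90.8 and 57.9 FPKM in LF floxed. Arntl, the core clock factor that peaks at the opposite time, had 1.10, 6.33 and 5.73 FPKM in LF knockout and 5.61, 0.76 and 1.36 FPKM in LF floxed. LF knockout replicates 2 and 3 thus stood with LF floxed replicate 1, and LF knockout replicate 1 with LF floxed replicates 2 and 3. Of 15 core clock genes, 0 were at an unadjusted p under 0.05 in either direction (1 was lower without LF knockout replicate 1). In a fit with the log2 level of Dbp as a covariate, added after these values were seen, edgeR called 29 genes higher and 14 lower, among them all 11 genes above.

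The genotype difference of the same genes was also read on the HF diet, whose libraries are not part of the LF comparison. Of the 12 named higher genes, 5 were also higher in HF knockout than in HF floxed, and of the 12 named lower genes 6 were also lower, while over all tested genes of each sign 45.0% and 40.1% kept it, so the named genes were near the share of all genes. Cidec had 0.22, 24.9 and 19.7 FPKM in HF knockout and 90.8, 88.3 and 9.68 FPKM in HF floxed, and Cd36 had 4.51, 16.7 and 53.8 FPKM in HF knockout and 59.1, 68.3 and 24.8 FPKM in HF floxed. The HF groups overlapped in both genes, and their HF level was above that of LF floxed livers in every HF floxed library. The test of the difference between the 2 genotype differences, HF minus LF, over all 12 libraries gave -6.27 log2 units for Cidec and -4.12 for Cd36, each with an adjusted p of 0.396. That test called 2 of 12587 genes (0.0159%). In Morf4l1b, which was lower in LF knockout, the HF values were 10.4, 11.8 and 16.4 FPKM in HF knockout and 4.52, 5.38 and 5.37 FPKM in HF floxed, and the difference was 3.11 log2 units (adjusted p 0.00452). The other was Gnai1, an inhibitory G protein subunit, named here after its value was seen.

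**Figure D5:**
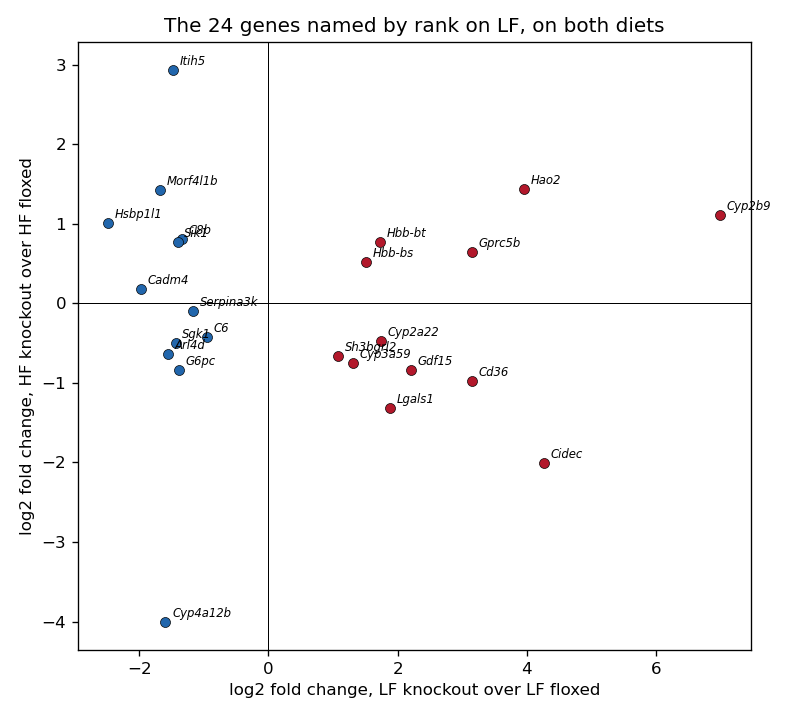
Each point is 1 of the 24 genes named by rank in the LF comparison, with its log2 fold change of LF knockout over LF floxed on the x axis and of HF knockout over HF floxed on the y axis (red, higher on LF; blue, lower on LF). Of the 12 red points 5 lie above 0 on the y axis, and of the 12 blue points 6 lie below 0.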

How the data were processed

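Bulk RNA-seq of 12 mouse livers was deposited by the authors as 1 table per library with estimated counts and FPKM. Per the file headers, the estimated counts have the column layout of RSEM, which divides shared reads among genes, and were not scaled. The authors scaled their FPKM values to gene length and fragment number. The submitters' processing notes name build mm9. No source used here names the aligner, the counter, the annotation or the use of strand in counting. A gene absent from a file was taken as 0, as no file lists a gene under 0.01 FPKM. LF libraries held 16131506 to 16536016 estimated counts. The SE values come from the edgeR fit and include the spread between libraries. The 1229 loci without a gene name, 11.6 to 17.3% of counts in LF libraries, were left out. Rounded counts of the 6 LF libraries were tested with edgeR 4.0.16 (R 4.3.3; TMM, filterByExpr, quasi-likelihood F test), with Benjamini-Hochberg adjustment over 11872 genes at 5% and the standard error from the F statistic. DESeq2 1.42.0 and limma 3.58.1 gave alternatives, 18 in all, and the fits were tested on simulated data. Log2 CPM used a prior count of 2. Genes were named by rule: Thbs1, the 12 smallest p in each direction among protein-coding genes with a mean of at least 1 FPKM in 1 group, and the 2 smallest p in each of 51 gene lists. Other list members named were chosen after their values were seen, as were the promoter motifs. The members and the lists were chosen with earlier results of these data known. Same-numbered replicates did not deviate together (correlations -0.25, -0.20 and -0.06), so the numbers were not taken as pairs. Promoter sequences and chromosomes are those of RefSeq on GRCm38.p6. Values of 2 list members are not reported here.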

Additional observations from a re-analysis of the deposited data

Results flagged for a closer look

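The genotype difference of Morf4l1b changed with diet: the HF difference minus the LF difference was 3.108 log2 units (adjusted p 0.00452, edgeR, 12 libraries), with LF knockout below LF floxed and HF knockout above HF floxed in every library. In 4 other named genes every library of the knockout group lay on one side of its floxed group on LF and on the opposite side on HF. The share of all tested genes with this pattern was not counted, so the 4 cannot be set against it. On LF alone, 16.6% of all tested genes had LF knockout wholly above LF floxed and 2.2% wholly below. The same difference of differences was -2.715 for Nqo1, an NRF2 target, -2.621 for the small heat shock gene Hspb1, -1.455 for Hsp90aa1 and 1.713 for the ribosomal Rps6, and edgeR's test of it did not pass (adjusted p 0.396, 0.42, 0.396 and 0.396).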

How the results depend on the processing

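The called genes numbered 5 higher and 6 lower. DESeq2 gave 112 higher and 50 lower; limma on log2(FPKM + 1) and on log2(FPKM + 0.1) gave 0 and 0 each (1214 and 158, and 1197 and 158, at an unadjusted p under 0.05); no filter on low counts gave 17 higher and 8 lower; all 12 libraries gave 1 and 1; LF knockout replicates 2 and 3 averaged gave 0 and 0; loci without a gene name kept gave 0 and 1 (570 and 563 at an unadjusted p under 0.05); limma voom with sample weights gave 302 and 494; and log2 CPM of Dbp as a covariate, added after the data were seen, gave 29 and 14. With the replicate number as a block, 3 genes were higher (Cd36, Cidea and Cidec) and 0 lower in edgeR (412 and 271 at an unadjusted p under 0.05). Leaving out 1 library gave 0 to 105 higher and 0 to 42 lower, with calls only without LF knockout replicate 1. The interaction, with 2 genes, gave 107 by DESeq2, 1 with the replicate block and 1 to 17 with 1 library left out. It gave 0 with LF knockout replicates 2 and 3 averaged and HF floxed replicates 1 and 2 averaged. The index of dispersion of these pairs was 2.33 and 4.37, both above the limit of 1.5 set for averaging. Thbs1 ranged over 2.01 to 2.67 log2 units when LF knockout replicate 1 or 1 LF floxed library was left out, and was 2.19 with all 12 libraries (adjusted p 0.929, edgeR); in the other settings where it fell below the filter it had no value. The causes were not tested beyond what each setting changes by construction. No named gene reversed: 1600 values kept their side of the threshold, 152 gained it and 118 lost it. Of the list medians 60 moved by more than the spread between replicates. On log2(FPKM + 1) the glucocorticoid list was among them, at 0.04 against -0.41 in the main fit. The Kupffer list stood at 0.18 there against -0.10, a move within its spread between replicates of 0.64. Both lists were then near the shift of all genes. Thbs1 rests on 107 estimated counts in LF knockout and 20 in LF floxed.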
